A study of Homo sapiens with 8 samples.

Results

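The transcript change shared by depletion of TET1, TET2 and TET3 was measured in NCCIT, a human line of embryonic carcinoma cells from a germ cell tumour. It was taken as the mean of the siTET1, siTET2 and siTET3 groups, each with equal weight, minus the non-targeting control group, siNTC. All 8 arrays of the series entered, 6 of TET depletion and 2 of siNTC, with 2 arrays in each of the 4 groups. Each siTET group received a transient transfection with a pool of small interfering RNAs against 1 TET transcript, and the siNTC cells received a control siRNA pool with no intended target, so all 8 samples share the transfection, the undifferentiated culture condition and the cell line. Knockdown was partial, no group was a clone or a knockout, and nothing in the labels says whether replicate arrays came from separate cultures, so the p-values below measure the spread between these arrays. Total RNA was hybridised to Affymetrix Human Gene ST arrays, and the values are log2 intensities per transcript cluster, the probe group for a transcript, with 1 cluster for each of 18417 genes.

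TET enzymes oxidise 5-methylcytosine in DNA to 5-hydroxymethylcytosine and further products, which can be replaced by unmethylated cytosine through base excision repair. Methylation sits mainly at CpG dinucleotides, and in pluripotent and embryonic carcinoma cells it is maintained by DNMT1 and placed by DNMT3A and DNMT3B. Because the 3 enzymes share a catalytic activity, the comparison of their mean with siNTC addresses which transcripts changed together after any TET depletion.

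Transcripts that changed together included the tight junction claudin CLDN16, which rose by at least 13.8-fold from below background (limma adjusted p = 2.35e-13), and ACTG2, the actin of enteric smooth muscle, which fell by 3.70 ± 0.074 on the log2 scale (limma adjusted p = 4.12e-12). Here and below the error is the standard error of the fit, with 6 depletion arrays and 2 siNTC arrays. Of 18417 genes, 7490 (40.7%) were called at a Benjamini-Hochberg adjusted p under 0.05, 3038 (16.5%) higher and 4452 (24.2%) lower after depletion. The median change of all genes was -0.026 and the median size of a change was 0.14, so most changes were small. Changes of at least 1.5-fold were found for 954 called genes, 346 higher and 608 lower. At least 2-fold, the numbers were 69 higher and 118 lower. At least 4-fold, 6 genes were higher and 14 were lower.

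Sequences around the transcription start are shown for 5 of these genes, to set promoters of differing CpG content and the motifs described below beside the measured changes. Each window holds 250 bases before the start and 50 after it, 5′ to 3′ on the strand of the gene, from RefSeq on GRCh38.p14. Capitals mark CpG dinucleotides in the windows of CLDN16 (chr3:190290111-190290410, plus strand), NRN1 (chr6:6003976-6004275, minus strand) and FLT1 (chr13:28495079-28495378, minus strand). They mark matches to the CArG box, the site of serum response factor, for ACTG2 (chr2:73892758-73893057, plus strand), and the core letters of the hypoxia response element, ACGTG or GCGTG on either strand, for BHLHE40 (chr3:4979187-4979486, plus strand).
CLDN16: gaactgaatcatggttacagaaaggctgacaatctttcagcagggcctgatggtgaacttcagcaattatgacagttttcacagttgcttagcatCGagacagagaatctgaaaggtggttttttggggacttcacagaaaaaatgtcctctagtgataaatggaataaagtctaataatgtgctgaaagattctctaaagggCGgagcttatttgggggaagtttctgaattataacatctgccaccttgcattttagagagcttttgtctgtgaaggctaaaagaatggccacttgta
NRN1: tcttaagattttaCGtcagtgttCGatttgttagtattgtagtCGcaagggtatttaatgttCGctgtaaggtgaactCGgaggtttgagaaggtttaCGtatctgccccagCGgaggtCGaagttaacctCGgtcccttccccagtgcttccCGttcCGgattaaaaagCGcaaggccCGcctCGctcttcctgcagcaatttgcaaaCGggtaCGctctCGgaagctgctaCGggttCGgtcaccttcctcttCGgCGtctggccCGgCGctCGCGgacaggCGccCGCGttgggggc
ACTG2: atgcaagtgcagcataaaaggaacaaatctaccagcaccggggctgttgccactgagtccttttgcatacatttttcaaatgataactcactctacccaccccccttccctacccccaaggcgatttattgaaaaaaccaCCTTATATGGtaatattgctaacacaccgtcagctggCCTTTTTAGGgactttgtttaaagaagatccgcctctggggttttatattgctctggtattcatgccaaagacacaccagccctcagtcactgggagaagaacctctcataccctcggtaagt
FLT1: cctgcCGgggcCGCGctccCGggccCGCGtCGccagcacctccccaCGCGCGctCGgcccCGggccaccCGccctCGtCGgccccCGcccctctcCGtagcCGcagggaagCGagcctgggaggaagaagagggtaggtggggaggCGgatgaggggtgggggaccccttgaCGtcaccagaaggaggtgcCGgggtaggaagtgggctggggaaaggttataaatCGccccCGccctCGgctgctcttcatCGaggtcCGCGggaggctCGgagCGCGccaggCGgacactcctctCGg
BHLHE40: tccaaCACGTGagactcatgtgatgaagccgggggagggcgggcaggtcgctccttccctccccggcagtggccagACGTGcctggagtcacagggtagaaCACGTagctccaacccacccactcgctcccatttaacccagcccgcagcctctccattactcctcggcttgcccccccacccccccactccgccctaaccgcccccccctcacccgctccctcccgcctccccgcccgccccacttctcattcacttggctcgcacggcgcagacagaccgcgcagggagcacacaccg

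The windows of the large increases and decreases spanned both CpG-poor and CpG-rich sequence. CLDN16 held 2 CpG and NRN1 28, and both rose. ACTG2 held 5 CpG and FLT1 33, and both fell. Among 9969 protein-coding genes above background with a window (82.9% of 12020), the median ratio of observed to expected CpG was 0.839 over all genes, 0.857 for genes called higher, 0.846 for genes called lower and 0.823 for genes not called. A ratio of at least 0.6 was found for 85.1% of the higher, 84.8% of the lower and 78.6% of the uncalled genes. Genes called at least 2-fold had fewer CpG-rich windows in both directions, 67.4% of 46 higher and 65.9% of 85 lower genes. These shares are descriptions over genes and were not tested. The ACTG2 window held 2 CArG boxes, and 1.09% of all these windows held at least 1. That share was 1.28% for genes called lower and 0.85% for genes called higher. At 2-fold it was 2.35% for lower and 2.17% for higher genes. The BHLHE40 window held 4 hypoxia cores, of which overlapping copies on both strands count separately, but 63.0% of all windows held such a core, so most promoters hold one. A match of letters does not show that a factor is bound there.

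The TET transcripts were examined in every array, since they show whether the siRNAs acted. TET1 was at 9.91 and 9.87 in siTET1, 10.28 and 10.27 in siTET2, 10.93 and 11.05 in siTET3, and 10.62 and 10.53 in siNTC. TET2 was at 7.61 and 7.64 in siTET1, 6.95 and 6.92 in siTET2, 7.22 and 7.48 in siTET3, and 7.71 and 7.91 in siNTC. TET3 was at 7.25 and 7.12 in siTET1, 7.60 and 7.50 in siTET2, 6.23 and 6.66 in siTET3, and 7.74 and 7.30 in siNTC. Each transcript was thus lowest in the group that targeted it, and in the other groups TET1 lay on either side of siNTC, TET2 below it and TET3 within the range of siNTC or below it. In the mean of the 3 depletions the values were -0.19 ± 0.039 for TET1, -0.51 ± 0.078 for TET2 and -0.46 ± 0.12 for TET3, each past the limma test. These means average a targeted group with groups that were not targeted, and none of the 3 was past the test when the 6 depletion arrays were fitted as 1 group. The TET3 call was also lost without siNTC replicate 1 (-0.24). DNMT1 was lower by the same contrast (-0.12 ± 0.035, limma adjusted p = 0.0146), a call that was lost without siNTC replicate 2 (-0.10) and with the depletions as 1 group, while DNMT3A at -0.069 ± 0.059 and DNMT3B at -0.058 ± 0.031 were not past the test. The housekeeping transcript GAPDH was at 0.0033 ± 0.032 and had no stable sign. Of the other housekeeping genes, the tubulin TUBA1C rose by 0.12 ± 0.030, the ribosomal protein gene RPL30 fell by 0.17 ± 0.027 and DYNLL1, a dynein light chain, was at -0.052 ± 0.034 and not past the test. Changes of this size in housekeeping genes were thus called.

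Separation of the arrays was examined next without the variance model. All 6 depletion arrays lay outside both siNTC arrays for 7460 genes (40.5%), above them for 2945 (16%) and below them for 4515 (24.5%). Of the called genes, 6414 (85.6%) were separated in this way and 1076 overlapped, and 1046 further genes were separated but not called. With 6 arrays against 2, an exact permutation test has 28 arrangements and cannot give a two-sided p under 0.0714 for a single gene. The calls therefore rest on the spread that the fit estimated from all 4 groups and all genes. Replicate arrays differed by a median of 0.066 in siTET1, 0.061 in siTET2, 0.092 in siTET3 and 0.080 in siNTC, on the log2 scale. Correlations over genes were 0.998 to 0.999 between replicates, 0.995 to 0.998 between arrays of different depletions and 0.989 to 0.991 between siNTC and depletion arrays, so the siNTC arrays stood apart from every depletion array.

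**Figure D1:**
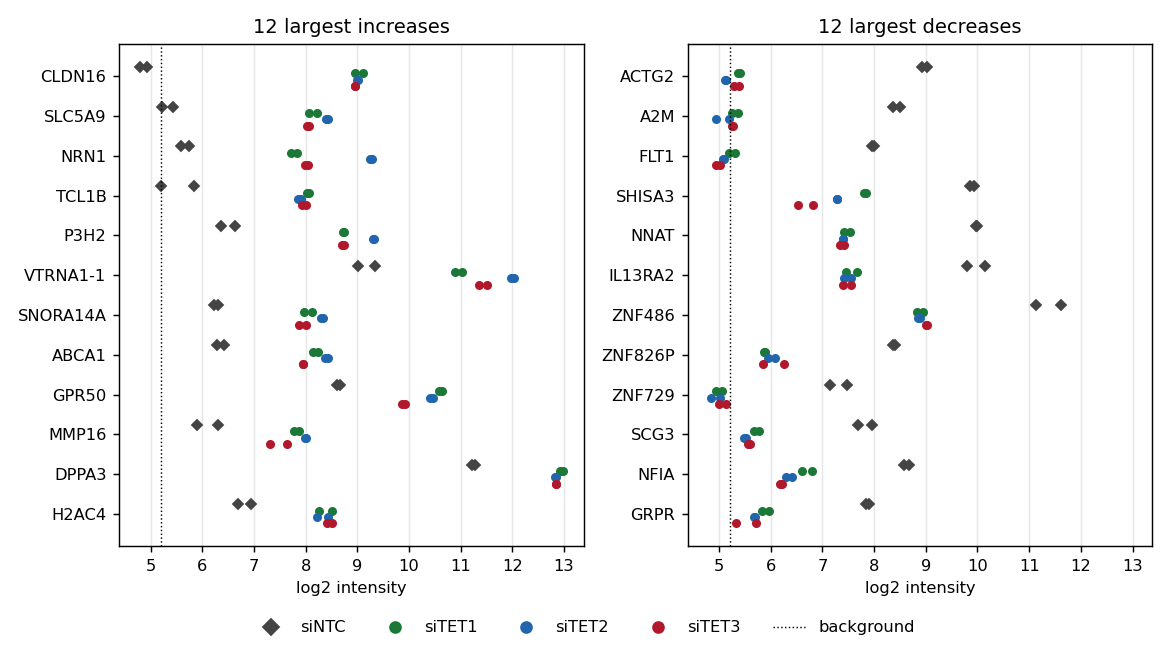
Log2 intensity (horizontal axes) of the 12 genes with the largest increase and the 12 with the largest decrease on each of the 8 arrays: siNTC (diamonds), siTET1, siTET2 and siTET3 (circles), with the background level of 5.21 as a dotted line. No depletion array overlaps a siNTC array for any of the 24 genes, a property that the choice of genes required.

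The 12 largest increases were examined first, among the genes that were called and separated on all arrays. CLDN16 was at 9.10 and 8.95 in siTET1, 8.99 and 9.01 in siTET2, and 8.96 and 8.95 in siTET3, against 4.80 and 4.94 in siNTC. Both siNTC values were below background, a log2 value of 5.21 given by the 95th percentile of 341 odorant receptor genes, so the fitted difference of CLDN16, 4.13 ± 0.059, is not a measured fold and only the bound of at least 13.8-fold is given. SLC5A9, a sodium-coupled sugar transporter, ran from 8.02 to 8.44 with a median of 8.14 on the depletion arrays and was at 5.23 and 5.44 in siNTC (2.86 ± 0.071). Its siNTC values were just above background. NRN1, the neurite growth protein neuritin, ran from 7.71 to 9.29 around a median of 8.02, against 5.60 and 5.75 (2.68 ± 0.062). For NRN1 the siTET2 arrays were highest, at 9.29 and 9.24, and the siTET1 and siTET3 arrays lay between 7.71 and 8.04.

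TCL1B, a member of the TCL1 family of AKT cofactors, ran from 7.86 to 8.06 with a median of 7.96, but its siNTC arrays were at 5.83 and 5.21. The increase was therefore 2.13 against siNTC replicate 1 and 2.75 against siNTC replicate 2. P3H2, a collagen prolyl hydroxylase, ran from 8.70 to 9.32 against 6.37 and 6.63 (2.42 ± 0.062). It is among the 10 genes nearest to CLDN16 on chromosome 3, of which 3 were called higher and 2 lower, with a median of -0.037. In the order of genes there, P3H2 and CLDN1 lie directly on either side of CLDN16, and CLDN1 rose too (0.58 ± 0.068). A link between the changes of these neighbours was not tested. VTRNA1-1, a small RNA of the vault particle, ran from 10.89 to 12.04 against 9.34 and 9.02 (2.29 ± 0.069). The other large increases were of SNORA14A, a guide RNA of pseudouridylation (1.84 ± 0.066), the cholesterol exporter ABCA1 (1.83 ± 0.060), the melatonin-related receptor GPR50 (1.68 ± 0.038), the membrane metalloproteinase MMP16 (1.66 ± 0.10), DPPA3, a regulator of DNA methylation in germ cells and the early embryo (1.63 ± 0.026), and the histone gene H2AC4 (1.57 ± 0.086). A further cluster was present for 2 of these genes. That of DPPA3 changed by 1.93 and that of MMP16 by only 0.50, so the size for MMP16 depends on the probes.

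Among the 12 largest decreases, ACTG2 was at 5.38 and 5.41 in siTET1, 5.13 and 5.12 in siTET2, and 5.38 and 5.29 in siTET3, against 9.03 and 8.93 in siNTC. It was above background on 4 of the 6 depletion arrays, by little. A2M, a protease inhibitor of plasma, ran from 4.94 to 5.37 with a median of 5.25, against 8.37 and 8.50 (-3.22 ± 0.089), and 4 of its depletion arrays were above background. FLT1, a receptor for VEGF, ran from 4.93 to 5.32 with a median of 5.08, against 7.96 and 8.0 (-2.87 ± 0.077), with 1 depletion array above background. These 3 transcripts thus fell from well measured siNTC levels to about the level of odorant receptor genes. SHISA3, an antagonist of WNT and FGF receptor maturation, ran from 6.53 to 7.83 against 9.85 and 9.93 (-2.63 ± 0.070) and was lowest on the siTET3 arrays, at 6.82 and 6.53. NNAT, an imprinted gene expressed in neurons, was tight in both groups, from 7.33 to 7.53 against 9.99 and 9.97 (-2.56 ± 0.054). IL13RA2, a decoy receptor for interleukin 13, ran from 7.40 to 7.68 against 9.80 and 10.15 (-2.46 ± 0.089).

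The 3 zinc finger loci among the largest decreases all lie on chromosome 19. ZNF486 fell by 2.45 ± 0.090, with siNTC arrays at 11.62 and 11.12, the pseudogene ZNF826P fell by 2.41 ± 0.097, and ZNF729 fell from 7.15 and 7.48 to values between 4.84 and 5.13, all below background. Zinc finger genes of this chromosome are similar in sequence, and whether probes that bind several of them tied their values together was not tested. Of the 10 genes nearest to ZNF729, 2 were called higher and 3 lower, with a median of -0.075. SCG3, a granin of secretory granules (-2.22 ± 0.085), the transcription factor NFIA (-2.21 ± 0.075) and GRPR, the receptor for gastrin-releasing peptide (-2.17 ± 0.097), completed the group. SCG3 lies on chromosome 15, as do SMAD3, CHAC1, TPM1, TJP1, THBS1, AEN and SNORD116-21 among the genes named below, and there 274 of 412 genes above background were called lower and 23 higher with a median of -0.31. The share of that shift in single genes of this chromosome was not tested. Medians of the other chromosomes lay between -0.12, for chromosome 2, and 0.074, for chromosome 7.

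The weight of the 2 siNTC arrays was then examined, because every value of this comparison contains both. A property of the siNTC cells or arrays that all depletions lack cannot be told apart from a change after depletion. All 7490 called genes had 1 direction against siNTC replicate 1 and siNTC replicate 2 taken alone. The call itself makes this likely, since it uses the mean and the spread of these same arrays, so it says little of their weight. Of the 187 called genes with at least a 2-fold change, 157 were past 2-fold against each siNTC array alone. Without siNTC replicate 1, 6034 genes were called, 5733 of them among the 7490, and without siNTC replicate 2 the numbers were 6215 and 5824, with the lone control array assumed to vary like the other groups. The largest changes varied in this respect. ACTG2 changed by -3.75 and -3.65 against siNTC replicates 1 and 2, and NNAT by -2.57 and -2.56. The values were farther apart for TCL1B, given above, for IL13RA2, at -2.29 and -2.64, for ZNF486, at -2.70 and -2.20, for SULT1C4, a sulfotransferase below background after depletion, at -1.34 and -1.97, and for CMKLR2, a receptor for chemerin, at -1.70 and -1.01. The control arrays also differed by at least 1.5-fold at 36 genes, against 19 in siTET1, 5 in siTET2 and 95 in siTET3.

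**Figure D2:**
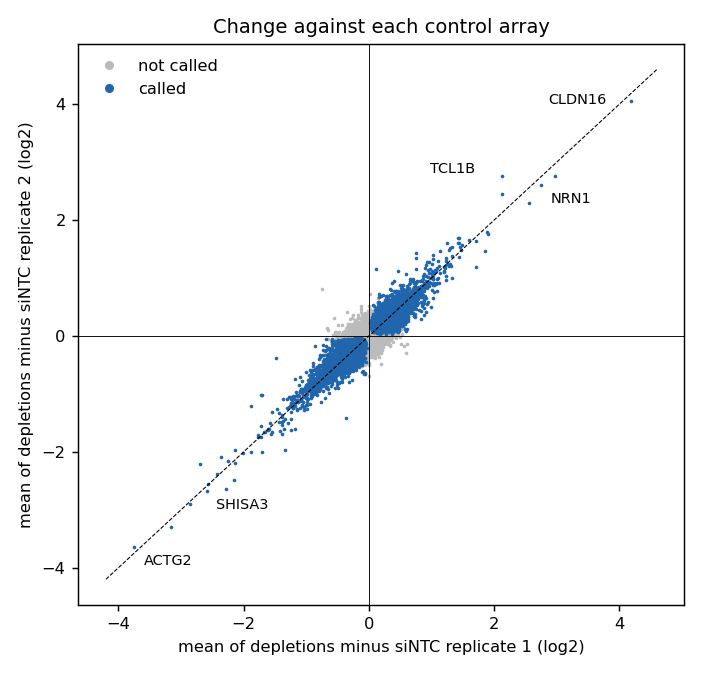
Mean of the 3 depletions minus siNTC replicate 1 (horizontal axis) and minus siNTC replicate 2 (vertical axis), in log2, for 18417 genes, called (blue) or not (grey). Both axes contain the same 6 depletion arrays, so points near the dashed line of equality show only that the 2 siNTC arrays were alike. All 7490 called genes lie in the quadrants where both changes have 1 sign, which a call on the mean of both siNTC arrays makes likely.

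Genes that crossed the background level were counted with no test. Above background on all 6 depletion arrays and on neither siNTC array were 45 genes, of which 40 were called, with a median change of 0.42. Besides CLDN16, the largest changes were those of the odorant receptor gene OR5P2, at least 1.76-fold, ELAPOR1, a protein of endosomes and lysosomes, at least 2.05-fold, the chemokine CCL26, at least 1.66-fold, the ciliary dynein DNAH11, at least 1.46-fold, and GALNT12, an enzyme that starts O-glycosylation, at least 1.48-fold. CCL26 ran from 5.76 to 6.09 against 4.86 and 4.81, while OR5P2 was at 6.76 and 6.86 in siTET2 but between 5.34 and 5.85 on the other depletion arrays. Apart from CLDN16, then, these genes came up to levels not far above background.

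The reverse pattern, above background on both siNTC arrays and on none of the depletion arrays, held for 58 genes, of which 53 were called, with a median change of -0.51. ZNF729 was lower by at least 4.31-fold. NFIB, a nuclear factor I gene like NFIA, ran from 4.48 to 4.85 against 6.40 and 6.36, at least 2.25-fold lower. SULT1C4 was at 5.99 and 6.63 in siNTC and at least 2.15-fold lower, and TSPYL5, a nucleosome assembly protein family member, at least 1.60-fold lower. EHHADH, a peroxisomal enzyme of fatty acid oxidation, and CDX4, a caudal homeobox factor, were lower by at least 1.54-fold and 1.53-fold, and their depletion arrays lay between 4.04 and 4.40. Counts of this kind depend on few arrays: 99 and 90 genes crossed upward without siNTC replicate 1 or 2, and 103 and 107 crossed downward.

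How alike the 3 depletions were was tested with a moderated F-test between them in the same fit, which uses the siNTC arrays only for the estimate of the spread. The depletions differed at 3399 genes (18.5%). Among the 7490 called genes 2357 (31.5%) differed, and among those changed at least 2-fold 86 of 187 (46.0%) did. For 7278 of the called genes the means of all 3 depletions lay on 1 side of the siNTC mean, and for 212 a depletion lay on the other side. The 2357 fell to 976 with no intensity trend in the variance. It also fell to between 1310 and 1509 without any 1 of the 4 siTET1 and siTET2 arrays. A gene with a large change also has more room to differ, and this share was not compared with one for unchanged genes of like level.

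The smallest spreads between depletion means were of 2 kinds. RPL39L, a paralog of a ribosomal protein gene with testis expression, was at 5.18, 5.17 and 5.17 in the siTET1, siTET2 and siTET3 means, a spread of 0.0024 (-1.55 ± 0.13). These means are below background, and so are all 6 depletion arrays of TSPYL5 (spread 0.040), so the likeness of the depletions for both genes is that of values at the floor. The other 3 genes were above background on all arrays. CMKLR2 had a spread of 0.014, with siNTC arrays at 7.28 and 6.59. SBDS, a factor of ribosome maturation, was at 11.19 and 11.23 in siNTC and between 10.08 and 10.27 after depletion (-1.02 ± 0.049, spread 0.037). STAG3L4, a partial copy of a cohesin gene, was at 10.21 and 10.34 and fell to between 8.26 and 8.42 (-1.94 ± 0.056, spread 0.058). SBDS and STAG3L4 are near neighbours on chromosome 7. Of the 10 genes nearest to SBDS, 9 were called lower and 0 higher, with a median of -0.94, and around STAG3L4 7 of 10 were lower and 0 higher with a median of -0.81. Around RPL39L, 3 of the 10 nearest genes were higher and 3 lower, with a median of 0.011.

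At the other end, LOX, NRN1, BHLHE40, GREB1L and OR5P2 had spreads of 1.35 to 1.56 between depletion means, the widest among called genes with a fitted change of at least 2-fold. The change of OR5P2 is known only as a bound of at least 1.76-fold. LOX, which cross-links collagen, was at 6.23 and 6.38 in siTET1, 7.78 and 7.94 in siTET2, and 6.69 and 6.68 in siTET3, against 5.47 and 5.38. BHLHE40, a repressor of the circadian clock induced by hypoxia, was at 6.78 and 6.77 in siTET1, 8.17 and 8.32 in siTET2, and 7.31 and 7.17 in siTET3, against 5.99 and 5.81. Both were highest in siTET2 and lowest of the depletions in siTET1. GREB1L, a coregulator needed in kidney development, had the other order, at 7.70 and 7.62 in siTET1, 6.94 and 7.11 in siTET2 and 6.27 and 6.28 in siTET3, against 5.52 and 5.50. For such genes the mean of the 3 depletions lies between values that differ.

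**Figure D3:**
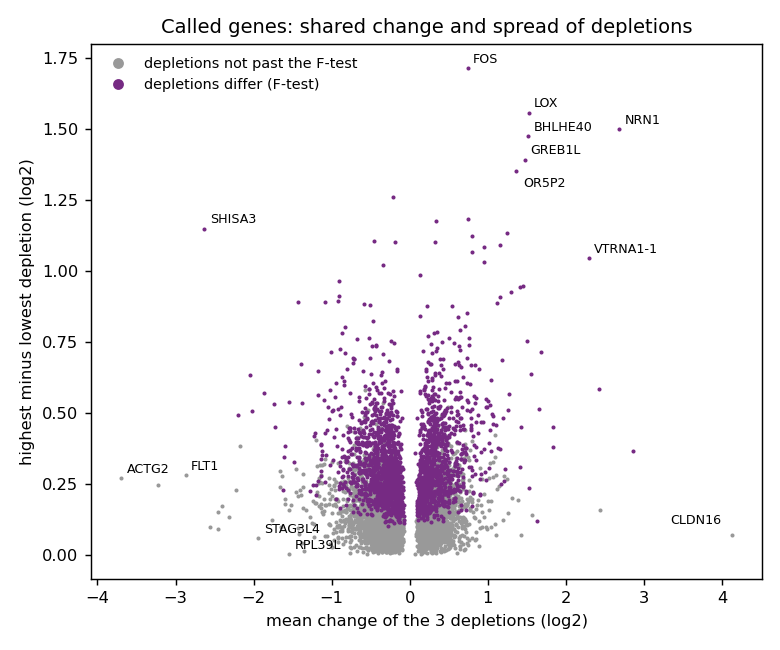
Mean change of the 3 depletions against siNTC (horizontal axis, log2) and highest minus lowest depletion mean (vertical axis, log2) for the 7490 called genes. The 2357 genes at which the depletions differed (purple) include NRN1, LOX and FOS near the top, whereas CLDN16, ACTG2 and FLT1 lie low, with spreads of 0.070, 0.27 and 0.28.

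Gene lists were described by their counts beside the shares of all genes called higher (16.5%) and lower (24.2%), with no test of the list. Calls rose with level: of the 6139 brightest genes 1752 were higher and 2434 lower, and of the 6139 dimmest 195 and 617. Lists with nearly all members above background, as for oxidative phosphorylation, the cell cycle and ribosomal proteins, were not set against genes of like level. The hypoxia response had 19 of 28 measured members higher, 1 lower and 8 not past the test, with a median change of 0.40. Besides LOX and BHLHE40, the mTORC1 inhibitor DDIT4 rose by 1.41 ± 0.066, the mitophagy receptor BNIP3 by 0.97 ± 0.031 and the collagen prolyl hydroxylase P4HA2 by 0.91 ± 0.067. DDIT4 was at 8.18 and 8.20 in siTET1, 9.01 and 9.11 in siTET2, and 8.04 and 8.19 in siTET3, against 7.15 and 6.94. Adrenomedullin, ADM, fell by 0.90 ± 0.040, and was at 9.25 and 9.20 in siTET1, where it was lowest, against 10.53 and 10.46. The increase was uneven: 19 of the 20 called members differed between depletions, and the median change was 0.24 in siTET1, 0.62 in siTET2 and 0.28 in siTET3. With the 6 depletion arrays as 1 group, 15 members were called. Of the enzymes of glycolysis and their regulators, 9 of 23 were higher and 6 lower, with the regulatory enzymes PFKFB4 (1.29 ± 0.077) and PFKFB3 (1.24 ± 0.043), hexokinase HK2 (0.51 ± 0.050) and the glucose transporter SLC2A1 (0.46 ± 0.028) higher and the phosphofructokinase subunit PFKM lower (-0.47 ± 0.062).

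Genes of cholesterol synthesis and uptake had 13 of 19 members lower, 1 higher and 5 not past the test. The median of the list was -0.23. HMGCS1, the enzyme that makes HMG-CoA, was at 11.56 and 11.56 in siTET1, 11.35 and 11.36 in siTET2, and 11.32 and 11.29 in siTET3, against 12.14 and 12.11 (-0.72 ± 0.027). DHCR7 (-0.65 ± 0.030) and SC5D (-0.64 ± 0.037), both of the last steps of the pathway, fell as well, as did MVK, FDPS and MVD of its mevalonate part, by 0.39 to 0.44. The kinase PMVK rose by 0.29. No array of any depletion overlapped the siNTC arrays for the 6 named decreases, which their choice as the largest called changes makes likely. Over the 19 members, 10 lay below both siNTC arrays on all depletion arrays, 1 lay above and 8 overlapped. Of all genes, 24.5% lay below and 16% above. SQLE, a rate-limiting monooxygenase, at -0.023, and INSIG1, which holds the sterol sensor in place, at 0.14, were not past the test.

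**Figure D4:**
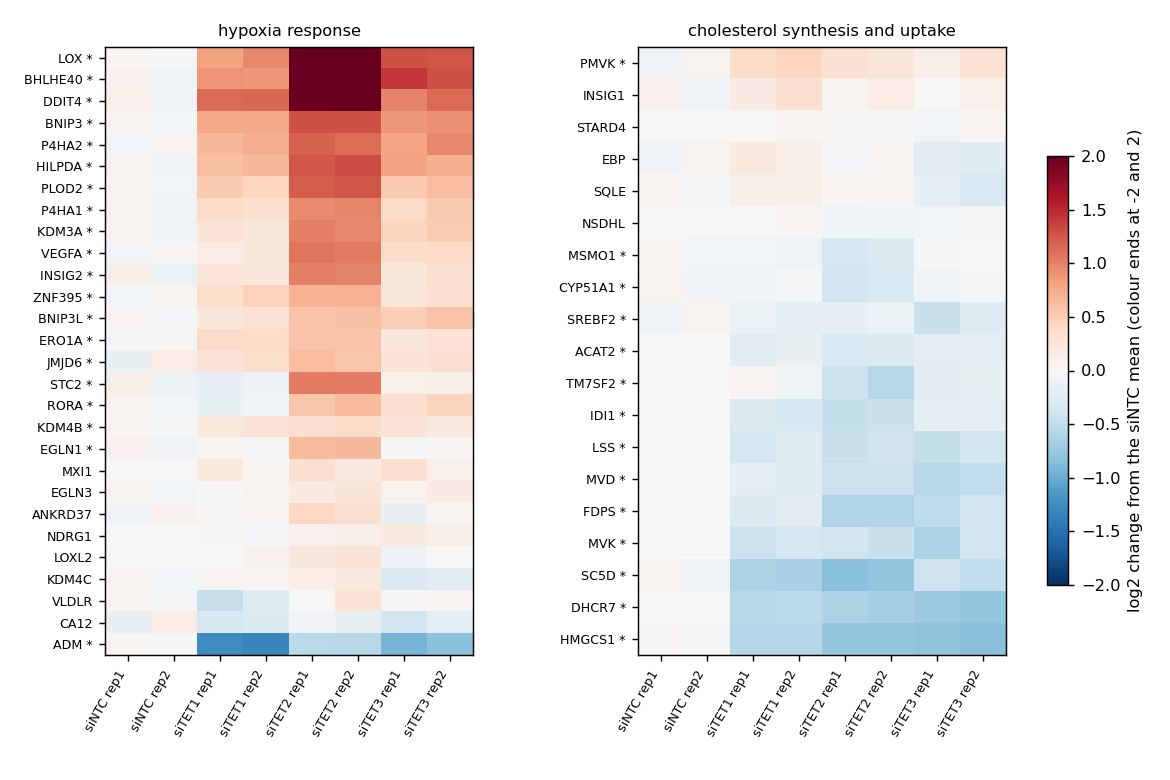
Log2 change from the siNTC mean on each array (columns) for the measured members of the hypoxia response and of cholesterol synthesis and uptake (rows, ordered by shared change), red higher and blue lower, with called members marked by a star. The median hypoxia member changed by 0.62 in siTET2, against 0.24 in siTET1 and 0.28 in siTET3, and the HMGCS1, DHCR7 and SC5D rows are blue on all 6 depletion arrays.

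Signalling lists held members with large changes in both directions. Of 20 genes of FGF signalling and its ERK feedback, 7 rose and 8 fell. DUSP6, the phosphatase that restrains ERK, fell by 2.02 ± 0.073, from 8.14 and 8.16 to between 5.78 and 6.39. The ligand FGF2 fell by 0.72 ± 0.042 and the receptor antagonist IL17RD rose by 0.65 ± 0.042. Of 28 WNT genes, 5 rose and 9 fell. The secreted antagonist FRZB (-1.17 ± 0.090), the repressor TCF7L1 (-0.79 ± 0.038) and the receptors FZD5, FZD2 and FZD8 (-0.62 to -0.56) fell, and the receptor FZD3 rose (0.62 ± 0.046). Of 27 NODAL and TGF-beta genes, 5 rose and 8 fell, with the signal transducer SMAD3 (-0.98 ± 0.050) and the receptor TGFBR2 (-0.66 ± 0.080) lower and the inhibitor ID1 higher (0.39 ± 0.044).

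The immediate early list, of genes induced within a short time of a stimulus, had 9 of 23 members higher and 3 lower. SRF, the factor that binds CArG boxes, was at 10.27 and 10.26 in siNTC and between 9.33 and 9.54 after depletion (-0.82 ± 0.038). JUN rose by 0.76 ± 0.079. FOS rose by 0.74 ± 0.062 in the mean, but it was at 8.74 and 8.60 in siTET2, between 6.94 and 7.31 on the other depletion arrays, and 6.87 and 6.91 in siNTC. With the 6 depletion arrays as 1 group the FOS call was lost and 5 immediate early genes were called in place of 12. Without siNTC replicate 1, 7 were called.

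Contractile and junction genes are described next. In the smooth muscle list, 6 of 19 members were lower and 1 was higher, 36.8% called in all against 40.7% of all genes. After ACTG2 came SYNPO2, an actin-bundling protein (-1.43 ± 0.090), the tropomyosins TPM2 (-0.89 ± 0.055) and TPM1 (-0.89 ± 0.049) and the calponin CNN2 (-0.48 ± 0.036). TPM2 was at 9.18 and 9.21 in siNTC and between 8.19 and 8.38 on all depletion arrays. The epithelial junction list had 10 of 22 lower and 3 higher, with the adhesion molecule EPCAM (-0.84 ± 0.046), CLDN7 (-0.80 ± 0.080), the desmosomal protein DSP (-0.55 ± 0.066) and the scaffold TJP1 (-0.49 ± 0.034) lower and CLDN1 higher (0.58 ± 0.068). The claudins named here thus moved in opposite directions. Of 36 integrin and matrix genes, 7 rose and 11 fell, with ITGB8 (1.20 ± 0.062) and ITGA5 (1.14 ± 0.080), integrin subunits, higher, and THBS1, a matrix glycoprotein of chromosome 15, lower (-1.0 ± 0.072). TIMP3, an inhibitor of metalloproteinases, rose by 0.95 ± 0.12, and its dimmer cluster changed by 0.27. Of 17 vascular genes, 5 fell and 1 rose. Of the 5 decreases, those of EDN1 and ANGPT1 were below background on all 8 arrays, and 4 members in place of 6 were called without siNTC replicate 1 or siTET2 replicate 2. With FLT1 the other VEGF receptor KDR fell (-0.66 ± 0.084) and the ligand VEGFA rose (0.54 ± 0.057), a call that was lost with the depletions as 1 group.

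In the lists of housekeeping and growth processes, nearly all members were above background on both siNTC arrays, and median changes were small. Of the 6139 brightest genes 4186 were called, so the counts below are not read as a property of these lists. Cell cycle and replication genes had 27 of 44 lower and 6 higher, with a median of -0.21. CCND1, cyclin D1, went the other way, from 8.21 and 8.11 to between 9.01 and 9.55 (1.13 ± 0.058), while cyclin D2, CCND2 (-0.71 ± 0.044), the cell cycle inhibitor CDKN1B (-0.77 ± 0.051) and the licensing genes CDT1 (-0.56 ± 0.096) and MCM6 (-0.53 ± 0.049) fell. Nuclear genes of oxidative phosphorylation had 36 of 71 lower and 13 higher, with a median of -0.14. NDUFB3, a subunit of complex I, fell by 1.27 ± 0.045 and SDHD of complex II by 0.92 ± 0.028, with siNTC arrays both at 12.21 and depletion arrays between 11.26 and 11.36. COX6B1 fell by 1.05 ± 0.039, whereas COX6C, another subunit of complex IV, rose by 0.83 ± 0.048. Amino acid and unfolded protein stress genes had 16 of 30 lower and 3 higher, with CHAC1, a glutathione-degrading enzyme (-1.37 ± 0.082), the serine synthesis enzyme PSAT1 (-0.59 ± 0.032), and ASNS, asparagine synthetase (-0.47 ± 0.052), lower. PSAT1 was among the tightest, from 10.61 to 10.69 after depletion against 11.27 and 11.23. Cytosolic ribosomal protein genes had 18 of 61 higher and 19 lower and a median of -0.002.

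Short RNA genes and histone genes are described together, since total RNA was labelled. H/ACA and Cajal body RNAs had 37 of 77 higher and 13 lower, with a median of 0.21, and SNORA14B (1.12 ± 0.075) and SNORA69 (0.93 ± 0.067) followed SNORA14A. With the depletions as 1 group, 33 members in place of 50 were called. C/D box RNAs had 48 of 115 higher and 39 lower, with SNORD45B at 1.43 ± 0.059 and SNORD116-21 at -1.07 ± 0.059. Of these 115 genes, 40 lie on chromosome 15. Of the vault RNAs, VTRNA1-1 and VTRNA1-2 (0.59 ± 0.040) rose, and VTRNA1-3 at -0.18 was not past the test. Replication-dependent histone genes had 30 of 56 lower and 3 higher, with a median of -0.22. H2AC15 was at 9.50 and 9.58 in siTET1, 9.41 and 9.40 in siTET2 and 10.31 and 10.27 in siTET3, against 11.14 and 11.22 (-1.44 ± 0.038). H2BC21 (-0.85 ± 0.038) and H4C4 (-0.82 ± 0.043) fell as well. H4C14 and H4C15 are near-identical copies and had the same values (-0.77 ± 0.039), so they count as 1 measurement.

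**Figure D5:**
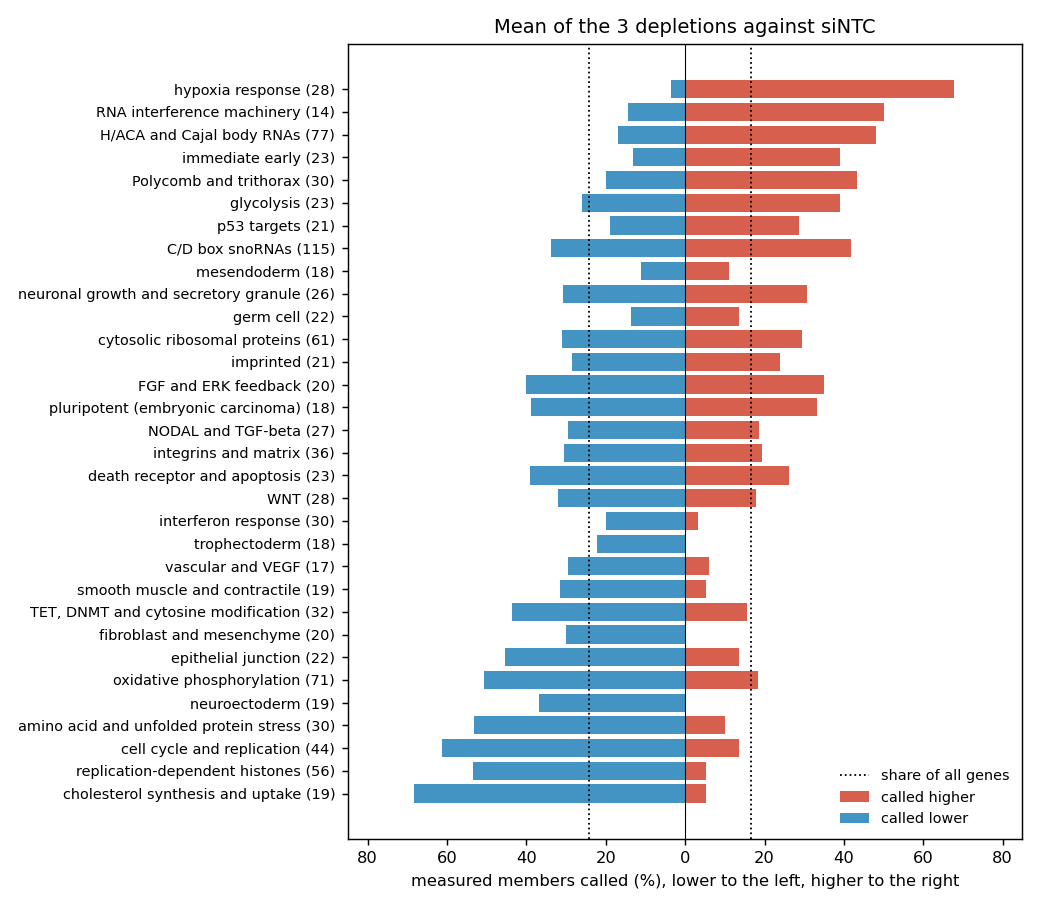
Share of the measured members of each gene list (number in parentheses) called higher (right, red) or lower (left, blue) in the mean of the 3 depletions against siNTC, in percent, for lists with at least 10 measured members. Dotted lines give the shares of all genes, 16.5% higher and 24.2% lower, and are not matched to the level of each list. The longest bars are those of the hypoxia response (19 of 28 higher) and of cholesterol synthesis and uptake (13 of 19 lower).

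Chromatin regulators had mostly small changes. Of 32 genes of cytosine modification, 5 rose and 14 fell, and 12 in all were called with the depletions as 1 group. DPPA3 was at 12.98 and 12.92 in siTET1, 12.82 and 12.83 in siTET2, and 12.84 and 12.84 in siTET3, against 11.27 and 11.22. The cofactor DNMT3L rose (0.64 ± 0.075) and the O-GlcNAc transferase OGT, a partner of TET proteins, was lower (-0.35). UHRF1, which brings DNMT1 to hemimethylated DNA, was lower in its brighter cluster (-0.43 ± 0.076) and not past the test when the mean of its clusters was used (-0.19). Of 30 Polycomb and trithorax genes, 13 rose and 6 fell, among them the methyltransferase KMT2C (0.49 ± 0.031), PCGF3 (0.46 ± 0.067) and JARID2 (0.42 ± 0.027), and PHF19 fell (-0.55 ± 0.073). Of 14 genes of the RNA interference machinery, through which the siRNAs act in every group, 7 rose and 2 fell. AGO4 was highest of these by change (0.49 ± 0.062) and PRKRA, a partner of Dicer, was lowest (-0.53 ± 0.046), while AGO2, which cuts siRNA targets, rose by 0.13. With the depletions as 1 group 5 of the 14 were called.

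Cell type markers were checked against the label. All 18 measured markers of pluripotent and embryonic carcinoma cells were above background on all 8 arrays, and 6 rose and 7 fell, from PODXL at -0.66 ± 0.029 to L1TD1 at 0.44 ± 0.028. POU5F1 and NANOG are not analysed here, since no cluster carried their symbol alone. SOX2 was lower by 0.13, and DNMT3B, LIN28A and LIN28B were not past the test. The log2 of the summed level of these 18 genes was 15.65 to 15.68 in siTET1, 15.59 to 15.61 in siTET2, 15.55 to 15.60 in siTET3 and 15.62 to 15.64 in siNTC. Sums over different lists are not comparable with each other, since probes differ in brightness.

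Few markers of differentiated cells were called higher. Of all genes 16.5% were called higher and 24.2% lower, and of the 6139 dimmest genes only 195 were higher. Above background on both siNTC arrays were 11 of 18 trophectoderm, 11 of 19 neuroectoderm, 11 of 18 mesendoderm and 9 of 20 fibroblast markers. The counts below were not set against genes of like level. Of 18 trophectoderm markers 4 fell and 0 rose, with HAND1 at 7.06 and 7.05 in siNTC and between 6.04 and 6.31 after depletion (-0.88 ± 0.080), TEAD4 (-0.59 ± 0.060) and TFAP2A (-0.48 ± 0.027). Of 19 neuroectoderm markers 7 fell and 0 rose, with LHX2 at 6.70 and 6.89 in siNTC and between 5.38 and 5.58 after depletion (-1.33 ± 0.085) and ZIC2 lower by 0.61. Among the 7 decreases, FOXD3 and NEUROG2 were below background on all 8 arrays. OTX2 overlapped siNTC, at 10.46 to 11.25 after depletion against 11.09 and 11.16. The neuroectoderm count was 3 without siNTC replicate 1 and 4 with the depletions as 1 group. Of 18 mesendoderm markers 2 rose and 2 fell. GATA6 was higher (0.37 ± 0.088), and so was FOXA2, which was below background on all 8 arrays. KDR, above background on every array, was lower (-0.66), and so was the fetal liver protein AFP (-0.51 ± 0.14). The GATA6 and AFP calls were lost without siNTC replicate 1, at 0.33 and -0.17, AFP was at -0.86 without siNTC replicate 2, and AFP was below background on all 8 arrays. Of 20 fibroblast markers 6 fell and 0 rose, with FN1 (-0.60 ± 0.038) and THY1 (-0.48 ± 0.038) measured well and POSTN below background on all arrays. In bulk RNA, fewer cells of a type and less RNA per cell cannot be told apart, and the part of such cells in the changes described above was not tested. The log2 sum of the trophectoderm list was 12.65 to 12.68 in siNTC and 12.15 to 12.42 on the depletion arrays. That of the mesendoderm list was 9.65 to 9.72 and 9.58 to 9.77, and that of the fibroblast list 12.70 to 12.71 and 12.33 to 12.43. The neuroectoderm sum was 11.71 to 11.74 in siNTC and was not lower in siTET1, at 11.71 to 11.73. It was 11.30 to 11.31 in siTET2 and 11.23 to 11.28 in siTET3.

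Germ cell, imprinted, neuronal and apoptosis lists completed the description. Of 22 germ cell genes 3 rose and 3 fell, with PRDM14, a germline and pluripotency factor (0.31 ± 0.040), beside TCL1B and DPPA3, and the RNA-binding protein DAZL lower (-0.54 ± 0.083). Of 21 imprinted genes 5 rose and 6 fell. NNAT lies within an intron of BLCAP, which fell as well (-0.54 ± 0.041), and PEG10, a retrotransposon-derived gene, fell by 0.59 ± 0.045. Of 26 genes of neuronal growth and secretory granules 8 rose and 8 fell, among them DPYSL5, a cytoskeletal protein of axons (1.45 ± 0.11), with 8.05 and 8.12 in siTET1, 7.56 and 7.69 in siTET2 and 7.13 and 7.14 in siTET3, against 5.90 and 6.43. Of 23 death receptor and apoptosis genes 6 rose and 9 fell, with the initiator caspase CASP8 at 7.82 and 7.67 in siNTC and between 6.46 and 6.81 after depletion (-1.15 ± 0.079) and its substrate BID lower (-0.77 ± 0.065). Of 21 p53 targets 6 rose and 4 fell, with ZMAT3 at 0.48 and AEN at -0.41 the largest each way. The 10 p53 calls became 5 without siNTC replicate 2 and 5 with the depletions as 1 group, and AEN lies on chromosome 15. Of 30 interferon response genes 1 rose and 6 fell, among them IFI6 at -0.51 ± 0.083, and with genes above background only 3 members were called.

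The level of a gene bore on how often it was called. In 3 classes of 6139 genes each by mean level, 812 dim genes were called, of which 76.0% were lower, 2492 genes of the middle class, of which 56.2% were lower, and 4186 bright genes, of which 58.1% were lower. The excess of lower calls was therefore present in all 3 classes, and widest where few genes were called. Only 12750 of the 18417 genes (69.2%) had a mean above background, so most of the dim class lay below it. Its share of lower calls thus largely describes values near the floor. With arrays centred on their medians, which had run from 6.65 to 6.76, 3286 genes were called higher and 4108 lower. The excess was thus smaller after centring, and its split by class was not recomputed. Of 63 further clusters of genes called at least 1.5-fold, 58 had the same sign as the cluster used.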

How the data were processed

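Per the labels, RNA from 8 NCCIT samples was hybridised to 1-colour arrays, 2 per group. The authors deposited log2 intensities per transcript cluster. The submitters' processing notes name Partek, but its version, the background correction and the normalization are not given in these sources. The array values span 33297 clusters, of which 19460 carried 1 symbol, 1754 several and 12083 none. The brightest single-symbol cluster was kept for each of 18417 genes, and 18389 symbols matched RefSeq.

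With limma 3.58.1 (R 4.3.3), 1 model of 4 groups was fitted to the genes and variances were moderated along an intensity trend, and the mean of the 3 depletions minus siNTC was tested with Benjamini-Hochberg adjustment over all genes (called at 0.05). A moderated F-test compared the depletions. The procedure was tested on simulated data. Tables and figures used Python 3.11.15, pandas 2.3.3 and matplotlib 3.10.9. The number of arrays limits the precision.

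Genes were named by rule: the TET, DNMT and housekeeping genes, the 12 largest called changes each way with no overlap of arrays, the 6 largest each way that crossed background, the 5 smallest and 5 largest spreads between depletions among called 2-fold changes, and up to 6 called members per list. SOX2, OGT, AGO2 and PMVK were named after their values were seen. The comparison, the lists and the rule were chosen with earlier results of these data known. Alternatives were quantile normalization, centring, no trend, depletions as 1 group, other backgrounds and clusters, a replicate block, omission of chromosome 15 and omission of each array.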

Additional observations from a re-analysis of the deposited data

Results flagged for a closer look

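Only genes named for the size of their change, for crossing background or for their spread are counted here. For 18 of them, the 3 depletions differed in size by the moderated F-test between them (limma, Benjamini-Hochberg adjusted over all genes). Genes named by another rule alone, such as FOS (spread 1.71) and PFKFB3 (1.13) of the lists, differed as well and are not included. The values here are the highest minus the lowest depletion mean on the log2 scale. Among the 18, spreads over 1 were those of LOX (1.56), NRN1 (1.5), BHLHE40 (1.47), GREB1L (1.39), OR5P2 (1.35), SHISA3 (1.15), DNAH11 (1.09) and VTRNA1-1 (1.04). The differences were smaller for GPR50 (0.71), P3H2 (0.58), GALNT12 (0.56), MMP16 (0.51), ELAPOR1 (0.51), NFIA (0.49), ABCA1 (0.45), SNORA14A (0.38) and SLC5A9 (0.37). For DPPA3 the spread was 0.12, against a shared change of 1.63.

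Clusters outside the gene table carried changes too. In a limma fit of all clusters, 3787 of 12083 clusters with no symbol (31.3%) were called, 1807 higher and 1980 lower, and 654 of 1754 clusters with several symbols (37.3%) were called.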

How the results depend on the processing

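Calls numbered 7490 and ranged from 5431 with the 6 depletion arrays as 1 group, of which 5412 were among the 7490, to 7659 after quantile normalization, and leaving out 1 array gave 6034 to 7943. The fold requirements left 954 genes at 1.5-fold and 187 at 2-fold. Called genes that also differed between depletions numbered 976 with no intensity trend and 1310 to 2762 with 1 array left out. With the depletions as 1 group, called members were 5 of the immediate early, 5 of the p53, 5 of the RNA interference, 33 of the H/ACA, 12 of the cytosine modification and 4 of the neuroectoderm list. With genes above background only, 3 interferon genes were called, and 45 genes crossed background upward and 3 downward, against 45 and 58 in the main run. That filter keeps genes by their mean over all arrays, most of which are depletion arrays. It therefore removes most genes that are below background on the 6 depletion arrays, so it cannot test the count of downward crossings. Leaving out 1 array gave 48 to 99 genes crossing upward, 60 to 107 crossing downward, 7 to 13 immediate early, 2 to 4 mesendoderm, 3 to 7 neuroectoderm and 5 to 12 p53 calls. GAPDH, not past the test, was at -0.038 after quantile normalization and between -0.044 and 0.050 with 1 array left out, with -0.0012 without siTET2 replicate 2 and -0.016 without siTET3 replicate 2. Of 211 named called genes, 177 kept call and direction in every alternative run and 34 lost the call in some. Replicate numbers did not pair the samples (correlations of -0.043 to 0.24 over 6 pairs of groups, 1 over 0.1), and a replicate block gave 7538 calls, 7389 of them among the 7490, and changed no call of a named gene. Apart from the removal of downward crossings by the background filter, the cause of these shifts was not tested.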
